A study of Mus musculus with 4 samples.

Results

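Malat1, Neat1, Meg3, Kcnq1ot1, D830024N08Rik, Gm31251, Gm47644, Gm10435, Gm29237 and 5430431A17Rik are long noncoding RNAs that were measured in left ventricle of young and aged mice with and without ischemia and reperfusion (I/R). They are 10 of the 32285 mouse genes in the files. They were chosen among noncoding RNAs that lead a cluster of barcodes or change strongly between the conditions, and were thus chosen by the UMI levels and ratios given here, which are a description with no test. All 10 passed the minimum of 100 unique molecular identifiers (UMIs) over both libraries in every comparison.

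The data are 4 droplet libraries made with the 10× Chromium 3′ kit from male wild-type C57BL/6J mice, 1 library per condition. The young mice had an age of 3 to 5 months and the aged ones of 24 to 26 months. The young I/R and aged I/R mice had 45 min of ischemia by surgery on the left anterior descending artery and 24 h of reperfusion, and the young sham and aged sham mice had no ischemia. The labels describe the sham tissue as healthy and the molecule as nuclear RNA, where the study describes sham operations and single cells, and how many mice went into a library is not given in the sources used here. With no replicate in any condition, the spread between mice is unknown, and each 95% interval below covers counting error alone.

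Long noncoding RNAs resemble messenger RNAs in being transcribed by RNA polymerase II, but many are spliced poorly, stay in the nucleus and act near the site where they are made. Malat1 gathers in nuclear speckles, which store splicing factors, and Neat1 builds paraspeckles, bodies that hold RNA-binding proteins and edited RNAs. Kcnq1ot1 and Meg3 come from imprinted domains, where a gene is read from the chromosome of a single parent, and antisense RNAs run through other genes on the opposite strand. Because such RNAs remain in the nucleus, their share of a library can move with how much nuclear RNA was captured as well as with their transcription.

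The 3′ kit primes on runs of A, so the 3′ ends of the transcripts bear on what could be counted. The last bases of 4 transcripts and the region around the processed end of Malat1 are shown, from GENCODE M21 transcripts on GRCm38, each read 5′ to 3′ on the strand of the RNA. Malat1 is cut before its annotated end and carries no added tail, and it keeps an A-rich tract that folds with U-rich stretches upstream into a triple helix. In the Malat1 and long Neat1 sequences the capitals mark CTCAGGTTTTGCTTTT, the 16 bases that both hold, and the run of 12 A in Malat1. In the short Neat1 and Kcnq1ot1 ends they mark AATAAA, the usual signal for adding a poly(A) tail.
Malat1, chr19:5795978-5796077, minus strand: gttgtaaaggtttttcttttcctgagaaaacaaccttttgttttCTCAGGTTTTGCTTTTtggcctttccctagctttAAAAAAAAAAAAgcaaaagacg
Neat1 long transcript, chr19:5824708-5824807, minus strand: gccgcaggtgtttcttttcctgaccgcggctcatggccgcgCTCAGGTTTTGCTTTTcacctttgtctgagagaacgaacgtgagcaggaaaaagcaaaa
Neat1 short transcript, chr19:5842307-5842406, minus strand: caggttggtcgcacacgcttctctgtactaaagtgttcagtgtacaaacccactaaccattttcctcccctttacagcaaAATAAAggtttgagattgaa
Kcnq1ot1, chr7:143203458-143203557, minus strand: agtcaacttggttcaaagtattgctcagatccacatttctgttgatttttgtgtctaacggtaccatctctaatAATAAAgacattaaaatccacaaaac
Gm31251, chr14:54991502-54991601, plus strand: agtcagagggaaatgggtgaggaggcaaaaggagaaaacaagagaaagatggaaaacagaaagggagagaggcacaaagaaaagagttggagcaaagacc

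Read on the strand of the transcript, the 16 bases occurred in 2 of 30209 lncRNA transcripts of the annotation. They were picked as the longest stretch that the Malat1 and long Neat1 regions share, so that both hold it was fixed in advance. The run of A in Malat1 ends 298 bases before the annotated end of its longest transcript. AATAAA stood in the last 100 bases of 3 of 4 Malat1 transcripts, of 1 of 4 Neat1 transcripts, of 4 of 11 Meg3 transcripts and of the single Kcnq1ot1 transcript. It stood in the last 100 bases of 1 of 2 transcripts of 5430431A17Rik, and in none of the transcripts of D830024N08Rik, Gm31251, Gm47644, Gm10435 and Gm29237. The same window held AATAAA in 25.3% of lncRNA transcripts and 42.5% of protein-coding transcripts. Runs of at least 8 A inside the transcript, not adjusted for its length, numbered 30 in the 93092 bases of Kcnq1ot1, with a longest run of 41. They numbered 7 in the longest Meg3 transcript. The longest transcripts of Malat1, Gm29237 and 5430431A17Rik held 1 each, the last of 28 A. Neat1, Gm31251, Gm47644, Gm10435 and D830024N08Rik held none. At least 1 such run occurred in 10.7% of lncRNA and 17.7% of protein-coding transcripts. Whether reads were counted over introns, and on which strand, is not given in the sources used here.

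The libraries differed in depth and in their shares of mitochondrial and ribosomal protein mRNAs. They hold 91124 to 102883 barcodes, and the median UMIs per barcode were 244 in sham and 374 after I/R in young mice, and 391 in sham and 675 after I/R in aged mice. The 13 mitochondrial mRNAs took 10.0%, 14.1%, 15.6% and 9.98% of UMIs in that order, and 84 ribosomal protein mRNAs took 2.20%, 2.98%, 3.22% and 2.70%. Between 2366 and 2843 barcode sequences were shared by each pair of libraries. The labels name cardiomyocytes, endothelial cells, fibroblasts and macrophages, and all 18 cardiomyocyte markers were detected and together took 9.73% to 12.01% of UMIs. The endothelial markers took 0.276% to 0.316%, the fibroblast markers 0.125% to 0.218% and the macrophage markers 0.0403% to 0.0756%. In sums over a whole library, fewer cells of a type and less RNA per cell cannot be told apart.

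Levels are given as CPM, the UMIs of a gene scaled to a library total of 1000000. Malat1 was higher in young sham than in any other library. It took 1897318 UMIs or 73436 CPM in sham and 881657 UMIs or 22223 CPM after I/R in young mice, and 1190895 UMIs or 28796 CPM in sham and 2891019 UMIs or 43299.6 CPM after I/R in aged mice. Young I/R was 3.30-fold below young sham, and aged I/R was 1.504-fold above aged sham. The intervals of the 4 libraries did not overlap. The median share of Malat1 among the UMIs of a barcode had the same order, with 5.26%, 1.77%, 2.14% and 3.52%.

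Neat1 had the same order of libraries as Malat1 within a much narrower range. Its levels were 3024 CPM (95% interval 3003 to 3046) in sham and 2556 CPM after I/R in young mice, and 2778 CPM in sham and 2906 CPM after I/R in aged mice. The highest and lowest libraries differed 1.18-fold, and all 4 intervals were apart. In young mice its log2 ratio of I/R to sham was -0.24, less negative than the median of all genes in that comparison. With libraries scaled by the median of gene-wise ratios it became 0.20, and the direction turned for aged I/R over aged sham as well, from 0.06 to -0.02.

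**Figure D1:**
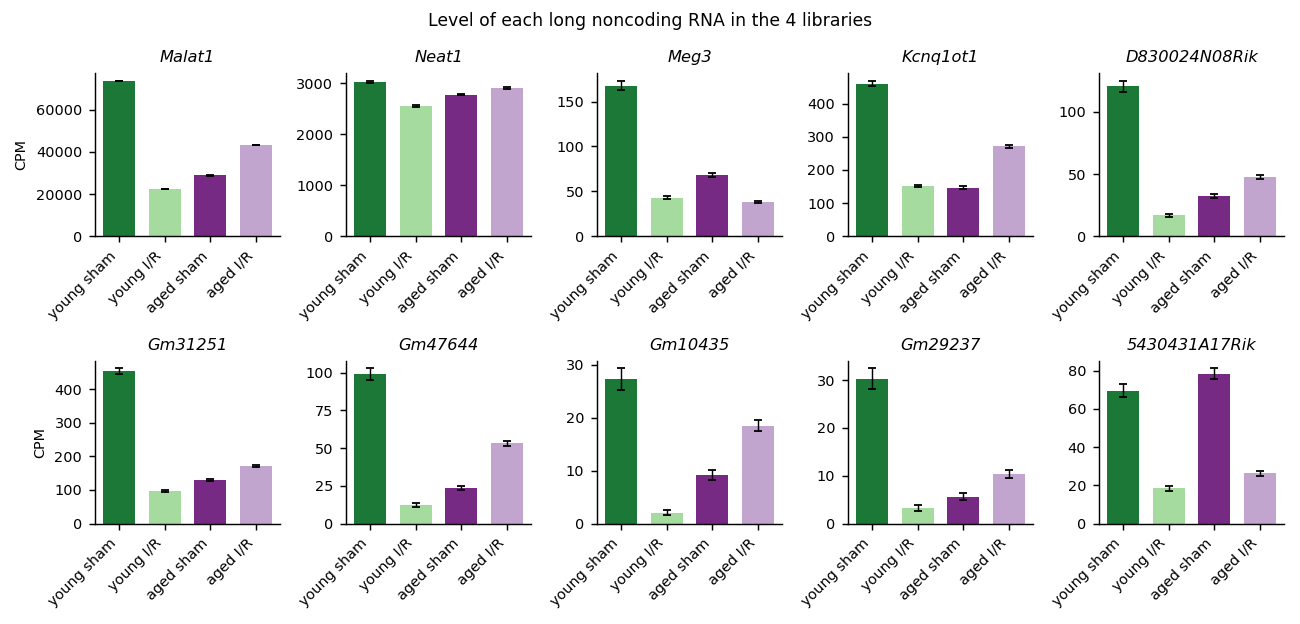
Level of each RNA in CPM, summed over all barcodes, with 1 bar per library and bars starting at 0. Lines at the bar tops are exact Poisson 95% intervals for counting error. The young sham bar is the tallest for 9 of 10 RNAs and the young I/R bar the lowest for 8, while the Neat1 bars are nearly level and 5430431A17Rik peaks in aged sham.

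Meg3, the noncoding RNA of the imprinted Dlk1-Dio3 domain and an inhibitor of growth in several cell types, was lower after I/R at both ages. It had 168 CPM (163 to 173) in sham and 43.1 CPM (41.1 to 45.2) after I/R in young mice, and 68.0 CPM (65.5 to 70.6) in sham and 38.2 CPM (36.7 to 39.7) after I/R in aged mice. The I/R libraries lay below both sham libraries. The fold between sham and I/R was 3.89 in young and 1.78 in aged mice. The 18 fibroblast markers together took 0.163%, 0.125%, 0.218% and 0.167% of UMIs in the same order, and their part in the level of Meg3 was not tested.

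Kcnq1ot1, which silences its imprinted neighbours on the paternal chromosome, had 460 CPM (452 to 469) in young sham and 272 CPM (268 to 276) in aged I/R. It had 152 CPM (149 to 156) in young I/R and 147 CPM (143 to 150) in aged sham. Young I/R and aged sham, the lowest pair, overlapped within counting error, and this was the single pair of neighbours in any RNA's order that did so. The matching share over all genes was not computed, so the lack of overlap cannot be read as a trait of these RNAs. Its log2 ratio of I/R to sham stood at -1.60 in the young and at 0.89 in the aged libraries.

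The next 5 RNAs are antisense or intronic to coding genes. Gm31251 is annotated within Myh7, the slow myosin heavy chain, on the opposite strand (chr14:54979393-54991601). Its level was 454 CPM (445.5 to 462) in sham and 95.9 CPM (92.9 to 99.03) after I/R in young mice, and 130 CPM (126 to 133) in sham and 171 CPM (168 to 174) after I/R in aged mice. Young sham lay far above the other 3 libraries, which were within a narrower range.

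Gm47644 shares a strand with Cep85l, a centrosome gene in whose intron it lies, and runs opposite to Pln, the phospholamban gene (chr10:53337753-53345085). It had 99.05 CPM (95.2 to 103) in sham and 12.4 CPM (11.3 to 13.6) after I/R in young mice, and 23.5 CPM (22.1 to 25.03) in sham and 53.1 CPM (51.4 to 54.9) after I/R in aged mice. The aged I/R library followed young sham, at 2.26 times aged sham.

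Gm10435 is a further antisense RNA. Its 704 UMIs in young sham gave 27.2 CPM (25.3 to 29.3), and its 81 UMIs in young I/R gave 2.04 CPM (1.62 to 2.54). The aged libraries had 9.21 CPM (8.31 to 10.2) in sham and 18.4 CPM (17.4 to 19.5) after I/R. This was the widest range of the 10 RNAs, 13.3-fold from young sham to young I/R.

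D830024N08Rik runs opposite to Tecr, an enzyme of very long fatty acid synthesis (chr8:83576044-83585919). It had 120 CPM (116 to 125) in sham and 16.9 CPM (15.6 to 18.2) after I/R in young mice, and 32.4 CPM (30.7 to 34.2) in sham and 47.2 CPM (45.6 to 48.9) after I/R in aged mice. Gm29237 runs opposite to Sptbn1, a spectrin of the membrane skeleton (chr11:30106394-30108120). It had 30.3 CPM (28.2 to 32.5), 3.201 CPM (2.67 to 3.81), 5.61 CPM (4.91 to 6.38) and 10.3 CPM (9.56 to 11.1) in the same order. For these 5 RNAs the libraries ran from young sham through aged I/R and aged sham to young I/R, as for Malat1.

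5430431A17Rik, an intergenic RNA near the deubiquitinase gene Josd2 (chr7:44473538-44486138), was the one RNA not highest in young sham. It had 69.6 CPM (66.4 to 72.9) in sham and 18.5 CPM (17.2 to 19.9) after I/R in young mice, and 78.5 CPM (75.9 to 81.3) in sham and 26.3 CPM (25.04 to 27.5) after I/R in aged mice. Both sham libraries lay above both I/R libraries, as for Meg3, and aged sham was highest. The I/R libraries were 3.76-fold lower than sham in young and 2.99-fold lower in aged mice.

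The comparison of young I/R with young sham addressed the response to ischemia in young hearts. Of the 10 RNAs, 9 were lower by at least 2-fold and 0 higher, where 22% of 12465 genes were lower and 2.43% higher. The median log2 ratio was -2.10 over the 10 RNAs and -0.44 over all genes, and relative to the middle gene Neat1 was higher and the other 9 were lower. Gm10435, at -3.74 (-4.09 to -3.40), Gm29237, at -3.24 (-3.52 to -2.97), and Gm47644, at -3.00 (-3.14 to -2.86), had the most negative ratios. D830024N08Rik followed at -2.83, Gm31251 at -2.24, Meg3 at -1.96, 5430431A17Rik at -1.91, Malat1 at -1.72 and Kcnq1ot1 at -1.60. Relative to Malat1, 7 of the other 9 were lower still, with differences in log2 ratio from -0.18 for 5430431A17Rik to -2.01 for Gm10435.

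In aged mice the same comparison gave smaller ratios, above 0 for 8 of the 10 RNAs. Lower by at least 2-fold was 5430431A17Rik, at -1.58 (-1.67 to -1.497), where 1.5% of 13722 genes were. Higher by at least 2-fold were Gm47644, at 1.18 (1.07 to 1.28), and Gm10435, at 1.001 (0.83 to 1.17), where 3.58% of genes were, and Gm10435 stood on the limit itself. Malat1 had 0.59, Kcnq1ot1 0.89, Gm29237 0.88, D830024N08Rik 0.54 and Gm31251 0.40, against a median of 0.09 over all genes. A filter for under 10% mitochondrial UMIs kept 1941 of 100342 aged sham and 44507 of 91124 aged I/R barcodes. In these Malat1 was lower after I/R with a log2 ratio of -0.77, and 4 RNAs were lower and 0 higher by 2-fold. The share of all genes past 2-fold was not computed there. In aged sham, split into 4 bins by Malat1 share, mitochondrial mRNAs took 17.3% in the lowest and 14.3% in the highest bin. The filter is thus not independent of Malat1.

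**Figure D2:**
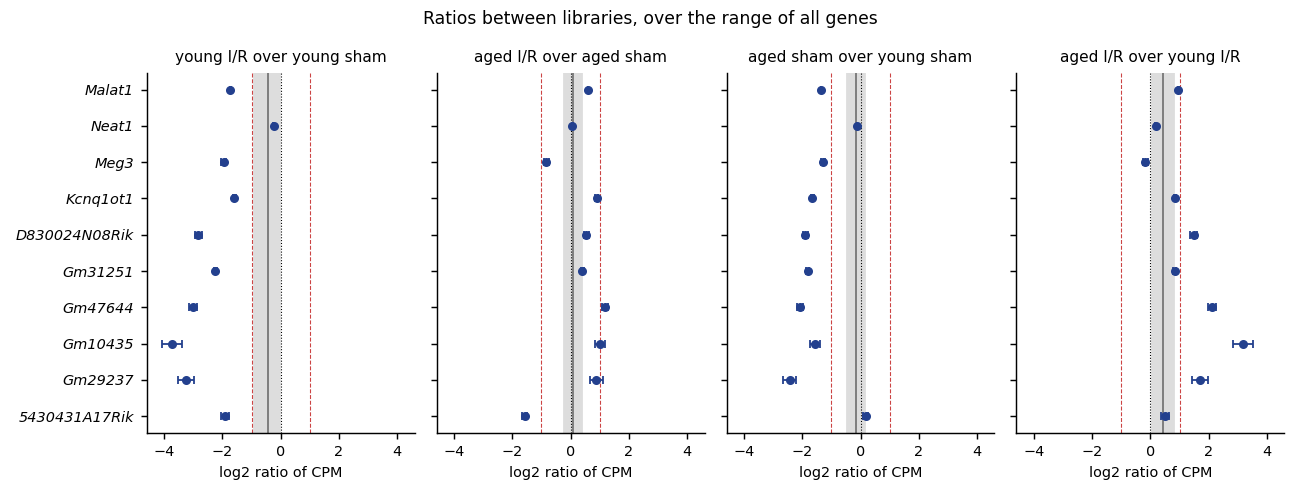
Log2 ratio of CPM for each RNA in the 4 comparisons, with exact conditional 95% intervals as horizontal lines. The grey band spans the interquartile range of all tested genes and the grey line their median, dashed lines mark 2-fold and the dotted line 0. In young I/R over young sham 9 points lie left of the 2-fold line, and in aged I/R over aged sham 8 points lie right of 0.

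The comparisons across age addressed aging without and with injury, and each shares its young library with the young I/R comparison. In aged sham over young sham, 8 of the 10 were lower by at least 2-fold and 0 higher, where 4.49% of 12901 genes were lower and 1.57% higher, and the median over all genes was -0.14. The ratios ran from -2.43 (-2.65 to -2.22) for Gm29237 to -1.30 (-1.37 to -1.23) for Meg3, with Neat1 at -0.12 and 5430431A17Rik at 0.17. In barcodes with under 10% mitochondrial UMIs, 1941 from aged sham and 39099 from young sham, the count fell to 4, and Malat1 stood at -0.17. The share of all genes was not computed there. In aged I/R over young I/R, 4 were higher by at least 2-fold and 0 lower, where 16.8% of 13434 genes were higher and 0.863% lower, and the median over all genes was 0.43. The 4 were Gm10435 at 3.17, Gm47644 at 2.10, Gm29237 at 1.69 and D830024N08Rik at 1.48, and Meg3 was the only one below 0, at -0.18.

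Taken gene by gene, most of the other long noncoding RNAs that were tested were also lower after I/R in young mice. Those tested had reached the UMI minimum over both libraries and were a small part of the 9820 other lncRNA genes. Whether this minimum favoured lower ratios was not tested. Without the 10 RNAs, 66.0% of 644 tested lncRNA genes were lower by at least 2-fold in the young I/R library, against 19.6% of 11802 protein-coding genes. Their median log2 ratios were -1.39 and -0.41. Their summed share of UMIs did not follow, and rose from 13.7% in young sham to 21.6% in young I/R. Most of this sum was 1 gene, Gm42418, which overlaps a ribosomal RNA repeat and had 114867 CPM in young sham and 194138 CPM in young I/R. Without Gm42418, which was picked after its values were seen, the summed shares were 2.23% and 2.21%. Among lncRNA classes, sense intronic genes had a median of -1.79, antisense genes -1.39 and intergenic lincRNA genes -1.22. Between the aged libraries the medians were 0.31 for lncRNA and 0.07 for protein-coding genes. Apart from Neat1, each of the 10 RNAs lay below the lncRNA median in young mice, a property for which they were chosen.

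Protein-coding genes showed a gradient with gene length. In young I/R over young sham the median log2 ratio was -0.11 for genes under 10 kb, -0.35 from 10 to 30 kb, -0.53 from 30 to 100 kb, -0.67 from 100 to 300 kb and -0.99 for genes of 300 kb or more. Between the aged libraries the corresponding medians were -0.13, 0.03, 0.16, 0.23 and 0.27. Both gradients followed the direction of Malat1. Mitochondrial and ribosomal protein mRNAs, which lie outside the nucleus when mature, had medians of 0.41 and 0.41 in young and -0.37 and -0.20 in aged mice. The part of nuclear RNA content in the ratios of the 10 RNAs was not tested.

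**Figure D3:**
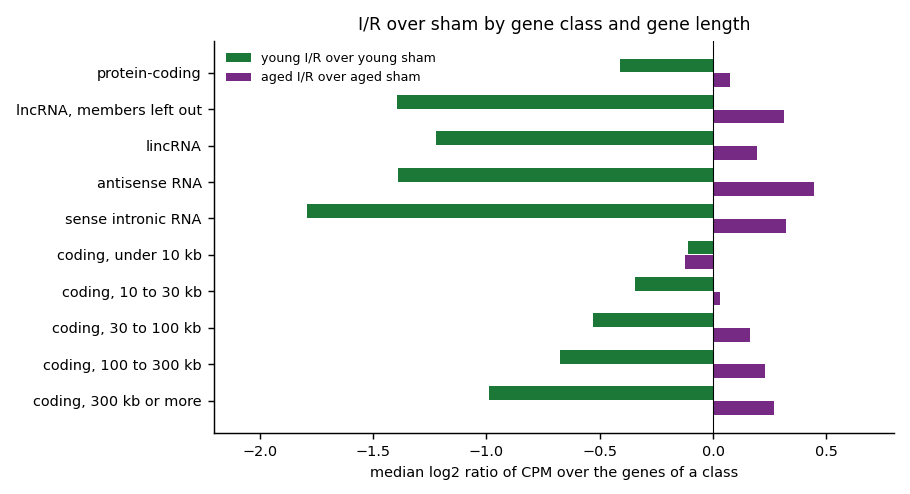
Median log2 ratio of I/R over sham for gene classes and for protein-coding genes by gene length, with bars starting at 0, green for young and purple for aged mice. The young bars grow from -0.11 for coding genes under 10 kb to -1.79 for sense intronic RNA, and the aged bars point the other way except for the shortest coding genes.

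Genes that overlap the antisense and intronic RNAs had ratios nearer to 0 than their partners in young I/R over young sham. The RNAs were chosen in part for strong changes and the overlapping genes were not, so this difference was favoured in advance. Pln had a log2 ratio of -0.60 between the young libraries and Cep85l had -0.92, and the log2 ratio of Gm47644 differed from that of Pln by -2.40. Tecr had -0.41 and Sptbn1 -0.93, each above the ratio of its noncoding partner. Between the aged libraries this did not hold throughout, and Tecr had -0.65 where D830024N08Rik had 0.54. Kcnq1, in which Kcnq1ot1 lies, had 14.4 CPM in sham and 11.9 CPM after I/R in young mice, and 22.3 CPM in sham and 17.1 CPM after I/R in aged mice. Exons overlapped on opposite strands over 121 bases for Kcnq1ot1 and Kcnq1, 134 for Gm29237 and Sptbn1 and 1644 for Gm47644 and Pln, so without a stated strand setting some reads cannot be told apart.

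Myh7 and Gm31251 differed most. Myh7, which mouse ventricle shuts off after birth and takes up again under stress or with age, had 72.3 CPM in sham and 93.9 CPM after I/R in young mice, and 1174 CPM in sham and 594 CPM after I/R in aged mice. For each 100 UMIs of Myh7 there were 627 of Gm31251 in sham and 102 after I/R in young mice, and 11.03 in sham and 28.7 after I/R in aged mice. The order of Gm31251 did not follow that of Myh7, with aged sham highest for Myh7 but below aged I/R for Gm31251. Their exons overlap over 523 bases, 41.9% of the exon bases of Gm31251. Mhrt, another antisense RNA of the same myosin locus, had 1343 CPM in sham and 156 CPM after I/R in young mice, and 273 CPM in sham and 556 CPM after I/R in aged mice.

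The nearest genes of the intergenic RNAs gave no common pattern. Frmd8, beside Neat1, had a log2 ratio of -0.05 (-0.37 to 0.27) between the young libraries, an interval that holds the -0.24 of Neat1, and of -0.25 (-0.47 to -0.022) between the aged ones, where Neat1 had 0.06. Rtl1, the coding neighbour of Meg3, had 6 to 12 UMIs in a library, too few to read a change. Josd2, beside 5430431A17Rik, was lower after I/R at both ages, at -0.71 and -0.49, as was its neighbour, but in aged sham over young sham it had -0.46 and its neighbour 0.17.

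Profiles over the 4 libraries were compared by the root mean square difference of centred log2 CPM over 3115 or 3116 genes, all of which share the same library totals. Nearest to Malat1 were Sgcd, at 0.025, Zkscan3, at 0.074, and Ppp1r10, at 0.075. Nearest to Neat1 were Grb2, at 0.021, Mfn1, at 0.022, and Cdk16, at 0.024. Mhrt, at 0.099 for Gm29237, 0.14 for Gm47644 and 0.20 for D830024N08Rik, was among the 3 nearest genes of these 3 RNAs, but not of Gm31251, Gm10435 or Kcnq1ot1. Meg3 was nearest to the amino acid transporter Slc38a3, at 0.13, and Kcnq1ot1 to Mrps5, at 0.13, with Malat1 as the third at 0.16. Gm31251 was nearest to Phkg1, at 0.17, and Gm10435 to Rnf207, at 0.42. 5430431A17Rik was nearest to the transferrin receptor Tfrc, at 0.18, and the clock gene Nr1d1, at 0.26, both higher in sham than in I/R libraries.

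Within a library, barcodes richer in Malat1 were also richer in the other RNAs. Barcodes of at least 200 UMIs were split into 4 equal bins by the share of Malat1 among their UMIs, and Malat1 was left out of the totals. All 9 other RNAs were higher in the top than in the bottom bin in each of the 4 libraries. The split was not made for all genes, so whether this sets the 9 apart from other genes is unknown. In the young sham library the fold between these bins ran from 2.20 for Meg3 to 5.43 for D830024N08Rik, with Gm31251 at 5.27, from 201.5 to 1061 CPM, and Neat1 at 4.38, from 1486 to 6513 CPM. In aged I/R it ran from 1.16 for 5430431A17Rik to 2.02 for Gm10435.

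The bins differed in other respects too. The mitochondrial share fell from 12.6% in the bottom to 7.58% in the top bin of young sham, and the median UMIs rose from 259 to 379. Between barcodes of 400 to under 800 UMIs, 8 of the 9 RNAs were higher in the top bin in every library, the exception being Meg3 in young sham, with 0.84 of the bottom bin. Gm29237 in young I/R counted as higher on 17 UMIs in the bottom and 18 in the top bin, a fold of 1.02. Depth, mitochondrial share and Malat1 share were not separated.

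**Figure D4:**
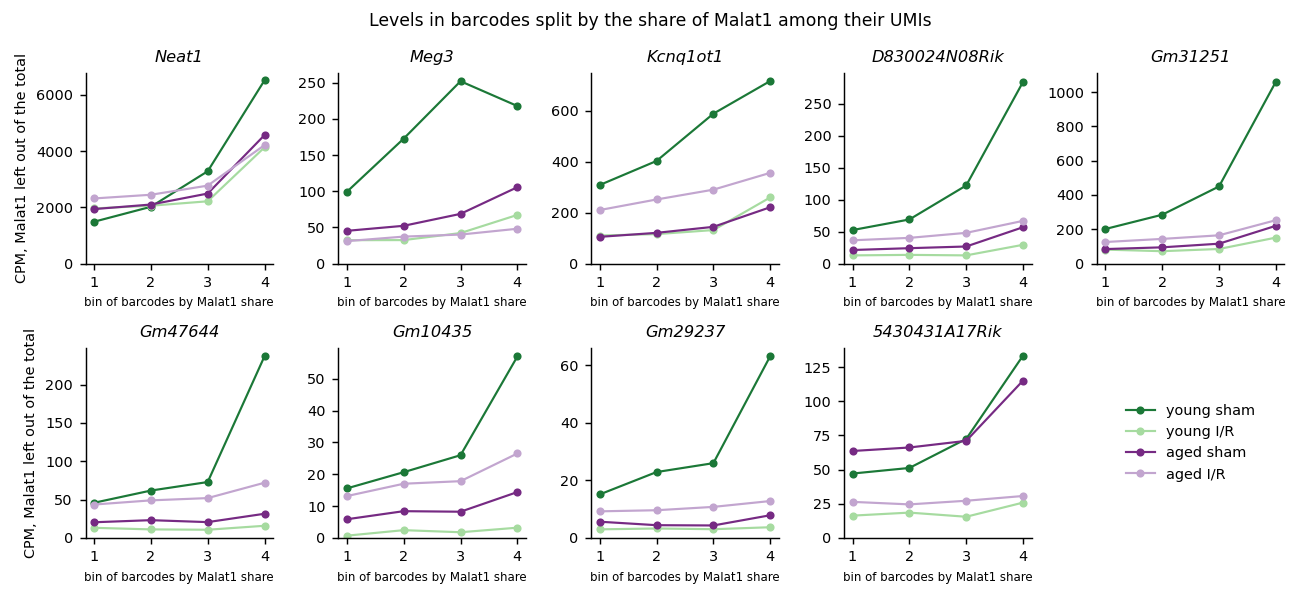
Level of the other 9 RNAs in barcodes of at least 200 UMIs, split in each library into 4 equal bins from the lowest (1) to the highest (4) share of Malat1, in CPM with Malat1 left out of the total. Each line is 1 library. The line of young sham climbs by the most CPM in each panel, and Meg3 in young sham peaks in the third bin.

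Levels were also compared at matched barcode depth, since depth differed between libraries. Malat1 rose with the number of UMIs in a barcode within every library, from 18589 CPM at 200 to under 400 UMIs to 56590 CPM at 800 UMIs or more in young I/R. In barcodes of 200 to under 400 UMIs, 8 of the 10 RNAs were lowest in young I/R, and 7 were at 400 to under 800 UMIs and 6 at 800 UMIs or more. The share of all genes lowest in young I/R was not computed. Over all barcodes the median log2 ratio of all genes in young I/R over young sham was -0.44. At 400 to under 800 UMIs Gm31251 had 778 CPM in sham and 103 CPM after I/R in young mice, and 137 CPM in sham and 145 CPM after I/R in aged mice. Neat1 had 4798 CPM, 2729 CPM, 2900 CPM and 2421 CPM there, a wider range than over all barcodes, with aged I/R lowest.

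The share of barcodes with a UMI of the gene depended on depth. Neat1 was found in 42.9% of young sham and 76.1% of aged I/R barcodes, although its CPM was lower in the latter. After each barcode was thinned to 200 UMIs, which left out 25914, 4608, 4424 and 0 shallower barcodes of the 4 libraries, the shares were 38.5%, 35.7%, 38.04% and 38.9%. Thinned shares of Gm31251 were 7.79%, 1.79%, 2.34% and 3.12% and of Kcnq1ot1 8.65%, 2.84%, 2.71% and 5.10%. Malat1 was found in 96.7% to 99.9% of thinned barcodes. Of the 10 RNAs, 8 had their lowest thinned share in young I/R, and the matching count over all genes was not computed. Of the clusters described below, cluster 11 was erythroid-like, with 6 of 6 erythroid markers at 1.5-fold. Malat1 took 8.25%, 1.96%, 2.30% and 3.84% of the UMIs of cluster 11 in the 4 libraries. Over all barcodes it took 7.34%, 2.22%, 2.88% and 4.33%, but clusters hold only barcodes with at least 200 detected genes, so these shares are not like for like. Among the clusters of young sham the share of Malat1 ran from 5.87% in cluster 0 to 14.7% in cluster 9. Cardiomyocyte markers took 9.58%, 8.38%, 8.72% and 10.9% of the UMIs of cluster 11. In young sham 16.8% of the 173 barcodes of cluster 11 held Gm31251 before thinning. The share that free RNA gives was not tested and is unknown.

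Clusters of the 241086 barcodes with at least 200 detected genes, made without the 10 RNAs among the features, differed little in cardiomyocyte RNA. These barcodes were 28.4% of young sham, 55.2% of young I/R, 67.9% of aged sham and 98.8% of aged I/R barcodes. The summed cardiomyocyte markers stood at 0.84 to 1.09 times all other barcodes in each of the 12 clusters. Cluster 9, led by Dmd, Neb and Myh7b, had the highest level of Malat1, Neat1, D830024N08Rik and Gm31251 in 4 of 4 libraries. In it Malat1 took 14.7% of UMIs in sham and 4.24% after I/R in young mice, and 5.27% in sham and 6.29% after I/R in aged mice, and mitochondrial mRNAs took 5.02%, 11.1%, 12.2% and 6.96%. D830024N08Rik and Gm31251 stood among its 10 leading genes by fold. They stood with Gm47644 among the 10 leading genes of cluster 7 as well, where Malat1 had 120315 CPM in young sham, second to cluster 9. Leading a cluster was a reason for choosing the RNAs, so these places are a description only. Only 1 of 18 cardiomyocyte markers reached 1.5-fold in cluster 9 and none in cluster 7, so both stay unnamed.

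Cluster 3 was highest for Meg3 and Kcnq1ot1 in 4 of 4 libraries. Of 18 fibroblast markers, 15 reached 1.5-fold in it, but none stood among its 10 leading genes, which include Hmcn2, Abca8a and Col5a2, and it keeps its number. Meg3 had 463 CPM, 94.3 CPM, 146 CPM and 86.1 CPM in cluster 3, against 94.9 CPM, 37.3 CPM, 54.5 CPM and 30.8 CPM in cluster 9. Kcnq1ot1 had 727 CPM, 263 CPM, 229 CPM and 374 CPM in cluster 3, and 612 CPM, 225 CPM, 173 CPM and 305 CPM in cluster 9. Malat1 was second highest in cluster 3 in 3 of 4 libraries, with 25021 CPM in young I/R, 34721 CPM in aged sham and 46602 CPM in aged I/R, so cluster 3 was high for all 3 RNAs and cluster 9 for Malat1 and Kcnq1ot1 but not for Meg3. For the other 4 RNAs the leading cluster differed between libraries and could rest on a few UMIs.

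Within clusters the order of the young libraries, by which the RNAs were in part chosen, held. Every cluster carried cardiomyocyte markers at 0.84 to 1.09 times the level of all other barcodes, so the clusters were not cleanly separate cell types. The counts of clusters given here may thus repeat the ratio of the whole libraries, and they do not show a change in each cell type. Over whole libraries the upper quartile of all genes in young I/R over young sham was a log2 ratio of -0.01. The share of all genes that were lower within each cluster was not computed. In every cluster with at least 20 UMIs over both libraries, each of the 10 RNAs was lower after I/R in young mice, in 12 of 12 clusters for Malat1 with log2 ratios from -2.32 to -1.52 and in 11 of 11 for Meg3 from -2.59 to -1.35. Clusters kept a smaller part of young sham than of young I/R barcodes, and Malat1 rose with depth, so these ratios are not those of all barcodes. The median over clusters was -1.89 for Malat1 and -0.50 for Neat1, against -1.72 and -0.24 over all barcodes. In aged mice Malat1 was higher after I/R in 12 of 12 clusters, from 0.26 to 0.74, and 5430431A17Rik lower in 11 of 11, from -2.25 to -0.76. Neat1 in aged mice was higher in 8 clusters and lower in 4.

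**Figure D5:**
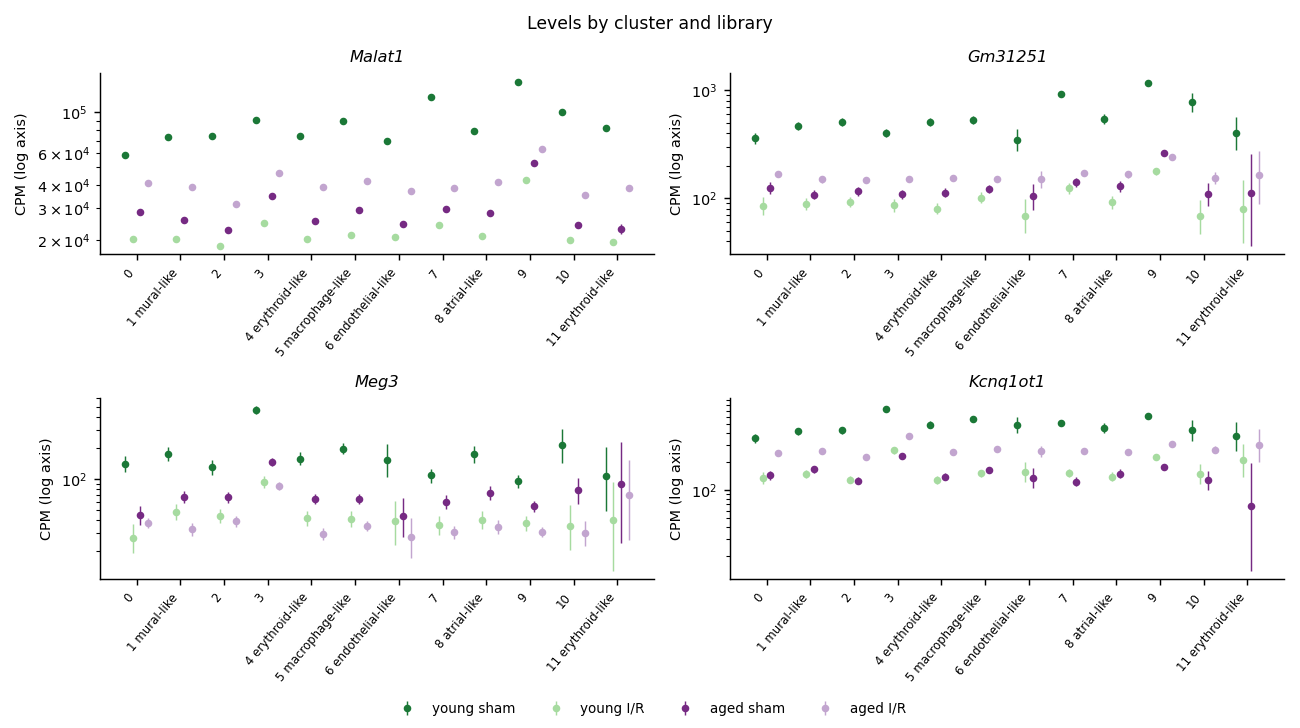
Level of Malat1, Gm31251, Meg3 and Kcnq1ot1 in CPM on a log axis for the 12 clusters, with 1 point per library and exact Poisson 95% intervals. Cluster 9 stands highest for Malat1 and Gm31251 and cluster 3 for Meg3 and Kcnq1ot1, and young sham is the top point in each cluster.

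The proteins that work with these RNAs were followed by their mRNAs in young I/R over young sham, where 22% of all genes were lower by at least 2-fold and 2.43% higher. Of 16 paraspeckle protein genes, 3 were lower by at least 2-fold and 0 higher, with a median of -0.59, a share near that of all genes. Hnrnph3, at -1.41, was lowest, and Hnrnpk, at 0.16, and Dazap1, at 0.11, highest. Of 22 nuclear speckle genes, 10 were lower and 0 higher, with a median of -0.94. The splicing cofactor gene Pnn, at -1.29, and the splicing kinase gene Clk1, at -1.26, were lowest there, and the splicing factor U2af1, at 0.39, highest. In aged I/R over aged sham none of the genes of either list passed 2-fold, as 1.5% of all genes did downward and 3.58% upward, and the medians were 0.03 and 0.17.

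Genes of the imprinted domains were mixed, and the counts for the Kcnq1 domain and for PRC2 lay near the 22% of all genes lower by 2-fold. Rian and Mirg, noncoding RNAs made from the same domain as Meg3, had log2 ratios of -2.18 and -1.41 in young I/R over young sham, while Wars, a tRNA synthetase gene of that region, had 0.23. Rian had 34.2 CPM in sham and 7.56 CPM after I/R in young mice, and 11.4 CPM in sham and 9.75 CPM after I/R in aged mice. In the Kcnq1 domain 2 of 8 tested genes were lower by 2-fold, Cdkn1c, a cell cycle inhibitor, at -1.23, and Tspan32 at -1.17, while Osbpl5 had 0.48. Of 10 tested genes of PRC2, the complex that places a repressive histone mark, and its partners, Jarid2, at -1.34, and Ezh2, at -1.06, were lower by 2-fold and 0 were higher.

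Other named long noncoding RNAs had a median of -1.27 in young I/R over young sham, with 13 of 23 tested lower and 0 higher by 2-fold, against 22% and 2.43% of all genes. Mhrt, at -3.10, and Carmn, at -2.36, were lowest, and 2900097C17Rik, at 0.27, and Pvt1, at 0.27, highest. Host genes of small nucleolar RNAs, whose spliced transcripts leave the nucleus, had a median of 0.12, with 1 of 15 lower and 1 higher. Between the aged libraries the medians of these lists were 0.39 and -0.06.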

How the data were processed

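The 4 libraries of left ventricle were single-cell suspensions run on the 10× Chromium 3′ kit, and the submitters' processing notes name Cell Ranger 6.0.2 and the mm10 build. The values are whole counts of UMIs per gene and barcode, deposited by the authors as the filtered Cell Ranger output with no scaling. Conditions were taken from the labels. The members and the gene lists were chosen with earlier results of these data known.

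UMIs were summed over all barcodes and divided by the library total (CPM). The libraries held 25836175, 39673199, 41356670 and 66767829 UMIs for sham and I/R of young and then of aged mice. No test was possible and no p-value is given, as no condition has a replicate. Sums have exact Poisson, shares exact Clopper-Pearson and ratios exact conditional intervals of 95%, all for counting error only, since a UMI count says nothing of the spread between mice. A gene was called past 2-fold at an absolute log2 ratio of at least 1 among genes reaching 100 UMIs in the pair of libraries. All 10 members are named, with their overlapping or else nearest coding genes, the 3 genes of most similar profile among those reaching 50 CPM in a library, and up to 4 genes from the ends of each list. Values of some of these genes are not reported here. Mhrt was added as a gene of the Myh7 locus after its values were seen.

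Gene classes, lengths and transcripts came from GENCODE M21 (GRCm38, the build of the files), where 32158 of 32285 gene identifiers matched. For clustering, barcodes with 200 or more detected genes were scaled to 10000 UMIs, and 2000 variable genes without the members and noncoding lists, 10 principal components, 20 neighbours and Leiden resolution 1 in scanpy 1.11.5 gave the clusters. A cluster was named where at least 3 markers of a type, more than of any other type, reached 1.5-fold and 1 stood among its 10 leading genes, a rule set after clusters had been seen. No doublet caller was run and no doublets were removed. The tools were matplotlib 3.10.9, igraph 0.11.9, scikit-learn 1.9.0, pandas 2.3.3, scipy 1.17.1, numpy 2.4.6 and Python 3.11.15, and the ratio and its interval were tested on simulated data. Alternatives were other scalings, other barcodes, a 1.5-fold limit, other count minimums, Leiden resolution 2, members among the features and thinning to 400 UMIs.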

Additional observations from a re-analysis of the deposited data

Results flagged for a closer look

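The direction of I/R over sham was opposite in young and aged mice for 8 of the 10 RNAs. Over all genes the median log2 ratio also changed sign, from -0.44 in young to 0.09 in aged mice. The share of all genes with opposite directions was not computed. With 1 library per condition every sample of one age moves one way by construction, the difference between the ages was not tested, and all ratios share the depth and nuclear RNA content of the same 4 libraries. The aged minus young difference of the log2 ratio was 4.74 for Gm10435, 4.17 for Gm47644, 4.12 for Gm29237 and 3.38 for D830024N08Rik, the RNAs that were lowest in young I/R. It was 2.64 for Gm31251, 2.49 for Kcnq1ot1 and 2.31 for Malat1. For Neat1 it was 0.31, from -0.24 in young to 0.06 in aged mice, and with libraries scaled by the median of gene-wise ratios both signs turned. In barcodes with under 10% mitochondrial UMIs the aged ratio was below 0 for 6 of the 8, among them Malat1 at -0.77, Gm47644 at -0.19 and Gm10435 at -0.23. That filter kept 1941 aged sham and 44507 aged I/R barcodes and is not independent of Malat1. In barcodes of 400 to under 800 UMIs Neat1 was lower after I/R at both ages. Per UMI of Malat1 the ratios of Kcnq1ot1 were above 0 at both ages, at 0.13 in young and 0.30 in aged mice. Those of D830024N08Rik, at -1.11 and -0.04, and of Gm31251, at -0.52 and -0.19, were below 0 at both ages. Both signs turned for Neat1, to 1.48 in young and -0.52 in aged mice. Meg3 and 5430431A17Rik were lower after I/R at both ages and are not among the 8.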

How the results depend on the processing

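No paired analysis was possible because each condition has 1 library, and for the same reason no library could be left out. Ratios were also taken per UMI of Malat1 in place of the library total, with Malat1 itself left out. The counts past 2-fold became 4 lower and 1 higher in young I/R over young sham, and 2 lower and 0 higher in aged I/R over aged sham. They became 1 lower and 2 higher in aged over young sham, and 1 lower and 2 higher in aged over young I/R. Of the log2 ratios past 2-fold, that of Kcnq1ot1 in young mice turned to 0.13 and that of Meg3 in aged over young sham to 0.048. Smaller ratios turned as well, such as that of Neat1 in young mice, to 1.48. In barcodes with under 10% mitochondrial UMIs, 4 were lower and 0 higher in aged I/R over aged sham, with Gm47644 at -0.19 and Gm10435 at -0.23, 4 were lower in aged over young sham, and 2 were higher in aged over young I/R. The share of all genes past 2-fold was not computed in these barcodes. In aged I/R over aged sham, where Gm10435 stands on the 2-fold limit, 1 RNA was higher with median gene-wise scaling, without Malat1, Gm42418 and the mitochondrial mRNAs in the total, in barcodes with at least 200 genes and in barcodes of 400 to under 800 UMIs, and 2 were lower in the last. At 1.5-fold, 2 were lower and 5 higher there, and 7 were higher in aged over young I/R. The share of all genes was not computed at 1.5-fold, nor under the other scalings and barcode sets. With the library total the median log2 ratio of all genes was 0.09 in aged I/R over aged sham and 0.43 in aged over young I/R. The 6 RNAs with the same leading cluster in every library became 2 at Leiden resolution 2 and 2 with the members among the features. Causes were not tested. Barcodes found in a single library left all 40 log2 ratios within their intervals. Of 40 ratios, 34 left them with median gene-wise scaling and 27 without Malat1, Gm42418 and the mitochondrial mRNAs. With at least 200 genes 26 did, and 35 did at 400 to under 800 UMIs. Under 10% mitochondrial UMIs 35 moved and 2 reversed, and per Malat1 UMI 34 of 36 moved and 2 reversed. Reversed here means a change of sign in a ratio that was past 2-fold with the library total and all barcodes. Changes of sign in smaller ratios are counted as moved. The shares of all genes past 2-fold changed over 1.5-fold in 5 of 8 cases at a minimum of 20 UMIs, and in 6 of 8 at 1 UMI in each library. Depth limits Gm10435 most, with 81 UMIs in young I/R.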
